A study of Homo sapiens with 12 samples.

Results

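The transcripts described here are those of the mitochondrial DNA of 786-O, an established cell line from a human clear cell renal carcinoma without functional VHL. Members were all genes of the deposited count table whose name starts with MT-, which gave 37 of the 58735 genes in the table, namely 13 mRNAs, 2 rRNAs and 22 tRNAs. The libraries came from 786-O xenografts with restored BBOX1, 786-O xenografts with an empty vector, cultured 786-O cells with restored BBOX1 and cultured 786-O cells with an empty vector, with 3 libraries in each of the 4 groups. BBOX1 is gamma-butyrobetaine hydroxylase, which makes carnitine in the final step of its pathway. The vectors were lentiviral and the infected cells were kept under antibiotic selection. Xenografts grew in immunodeficient NOD SCID gamma (NSG) mice that were 6 to 8 weeks old, a strain without mature lymphocytes but with its own stroma, vessels and myeloid cells, and tumours were homogenised whole. Cultured cells were kept in DMEM with 10% serum. All groups therefore share the line's own mutations and a lentiviral vector. The labels do not state that replicates were separate cultures or tumours, and the p-values below therefore describe the spread between libraries, which may be partly technical.

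Human mitochondrial DNA is transcribed from both strands as long polycistronic precursors by the RNA polymerase POLRMT with the factors TFAM and TFB2M. The tRNAs punctuate these precursors, and their excision by RNase P and the nuclease ELAC2 releases the mRNAs and rRNAs. Most mRNAs then receive short poly(A) tails, which complete a stop codon where the DNA holds only its first base or bases, and the LRPPRC and SLIRP complex stabilises them. The mRNAs encode core subunits of respiratory complexes I, III and IV and of ATP synthase, while the rRNAs form the mitochondrial ribosome. Clear cell renal carcinomas are known for low respiration and strong glycolysis. Mature mitochondrial tRNAs carry no poly(A) tail and are shorter than the reads, so counts on tRNA genes in polyadenylated RNA can come from reads that reach into them from longer molecules, and the rRNAs carry only short tails.

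Of the 13 mRNAs, 12 are encoded on the plus strand of the reference (GRCh38, GENCODE release 29) and only MT-ND6 is on the minus strand, as are 8 of the 22 tRNAs. The genes are packed end to end, which limits how reads are assigned to them. The sequences where an mRNA ends without a full stop codon are shown because these transcripts depend on polyadenylation for their stop; capitals mark the bases left after the last whole codon.
MT-ND1, chrM:4248-4262, plus strand: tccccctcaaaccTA
MT-ND2, chrM:5497-5511, plus strand: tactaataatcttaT
MT-CO3, chrM:9976-9990, plus strand: attgatgagggtctT
MT-ND3, chrM:10390-10404, plus strand: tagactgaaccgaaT
MT-ND4, chrM:12123-12137, plus strand: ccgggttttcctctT
MT-CYB, chrM:15873-15887, plus strand: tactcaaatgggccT

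The other 7 mRNAs end in a whole codon, which is AGA in MT-CO1, AGG in MT-ND6 and TAA or TAG in the rest. The 2 pairs of mRNAs that overlap by more than 1 base are shown next, since a read inside an overlap belongs to 2 genes. These are the overlapping mRNAs named below. MT-ATP6 and MT-CO3 also share 1 base, at chrM:9207. Capitals mark the start codon of the downstream gene and the stop codon of the upstream gene.
MT-ATP8/MT-ATP6, chrM:8527-8572, plus strand: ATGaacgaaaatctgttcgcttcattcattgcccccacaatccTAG
MT-ND4L/MT-ND4, chrM:10760-10766, plus strand: ATGcTAA

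The tRNA genes on which the tRNA results turn are shown in full, in lower case and in their own 5′ to 3′ direction. MT-TN and MT-TC border an unannotated gap of 31 bases that holds the origin of light-strand replication, MT-TY borders a gap of 12 bases before MT-CO1, MT-TP is the last gene before the control region, MT-TL1 follows the rRNA MT-RNR2, MT-TL2 precedes MT-ND5, and MT-TA lies between MT-TW and MT-TN.
MT-TN, chrM:5657-5729, minus strand: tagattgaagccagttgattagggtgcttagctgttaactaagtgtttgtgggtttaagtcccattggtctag
MT-TC, chrM:5761-5826, minus strand: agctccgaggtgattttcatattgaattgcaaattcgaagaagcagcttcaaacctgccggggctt
MT-TY, chrM:5826-5891, minus strand: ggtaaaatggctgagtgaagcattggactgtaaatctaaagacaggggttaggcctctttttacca
MT-TP, chrM:15956-16023, minus strand: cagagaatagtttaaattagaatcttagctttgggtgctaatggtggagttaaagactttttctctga
MT-TL1, chrM:3230-3304, plus strand: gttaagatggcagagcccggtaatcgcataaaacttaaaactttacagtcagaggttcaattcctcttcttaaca
MT-TL2, chrM:12266-12336, plus strand: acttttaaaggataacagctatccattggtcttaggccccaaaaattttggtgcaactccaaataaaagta
MT-TA, chrM:5587-5655, minus strand: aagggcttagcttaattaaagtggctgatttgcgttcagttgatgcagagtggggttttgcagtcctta

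Libraries held 13729031 to 18937852 counts in xenografts and 15627686 to 26758712 in cultured cells. BBOX1 averaged 1514 CPM in BBOX1 xenografts against 0.607 CPM in empty-vector xenografts, and 1081 CPM in BBOX1 cells against 0 counts in empty-vector cells. These group means matched the vector labels, and they do not bear on the labels of xenograft and culture. The renal marker PAX8 was present throughout, at 628 to 803 CPM in xenografts and 254 to 277 CPM in cells, and the endothelial CDH5, the erythroid HBB and the myeloid AIF1 and TYROBP were at 0 counts in every library. Other markers of these cell types were above 0, and their sums are given with the other values that moved with the setting. BBOX1 xenograft replicate 1 differed most from its group. The chi-square of its gene counts per degree of freedom was 44.4 and 44.5 against replicates 2 and 3, compared with 9.24 between those, 12.3 to 15.7 among empty-vector xenografts and 1.90 to 2.76 among cell libraries of a group. The counts of genes that passed, the shares of reads and the lists that rest on BBOX1 xenografts are therefore also given without it, while values of single genes are from all 3 libraries unless stated.

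Mitochondrial mRNA took a larger share of the library in xenografts than in culture. The 13 mRNAs together held 7.19%, 11.3% and 12.5% of all counts in BBOX1 xenografts and 8.14%, 6.15% and 7.08% in empty-vector xenografts, against 2.86%, 2.85% and 2.84% in BBOX1 cells and 2.88%, 2.87% and 3.13% in empty-vector cells. All 6 xenograft libraries lay above all 6 cell libraries. With the vectors as strata the difference was 5.84 percentage points (exact permutation test over samples, two-sided, p = 0.005, the smallest that 400 arrangements allow; Benjamini-Hochberg adjusted p = 0.0438 over 35 such tests). Within 1 vector, 3 libraries against 3 cannot give a p below 0.1. Without BBOX1 xenograft replicate 1 the difference was 6.63 percentage points. In bulk RNA a larger share can come from more cells of a type or from more RNA per cell, and these cannot be told apart here.

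The rRNA genes and the tRNA genes moved the same way. Reads on the rRNAs made up 0.708%, 1.13% and 1.07% of counts in BBOX1 xenografts and 0.794%, 0.596% and 0.678% in empty-vector xenografts, against 0.345% to 0.359% in BBOX1 cells and 0.351% to 0.384% in empty-vector cells. Reads on the tRNA genes made up 0.0597%, 0.0957% and 0.0787% in BBOX1 xenografts and 0.0583%, 0.0407% and 0.0476% in empty-vector xenografts, against 0.0165% to 0.0182% in BBOX1 cells and 0.0176% to 0.0186% in empty-vector cells. The xenograft libraries again lay above the cell libraries without overlap in both classes, and both differences reached the smallest p the design allows (exact permutation within vectors, p = 0.005, adjusted p = 0.0438; 0.470 percentage points for rRNA and 0.0457 for tRNA). As a mean, all mitochondrially encoded reads together were 11.4% ± 3.04 of the library in BBOX1 xenografts, 7.86% ± 1.10 in empty-vector xenografts, 3.22% ± 0.0026 in BBOX1 cells and 3.34% ± 0.165 in empty-vector cells (SD, n = 3 each). The spread in BBOX1 xenografts was the widest of the 4 groups in each class, and replicate 1 was the lowest library of that group in each. Without it, xenografts were 0.536 percentage points above cells for rRNA and 0.0503 for tRNA.

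**Figure D1:**
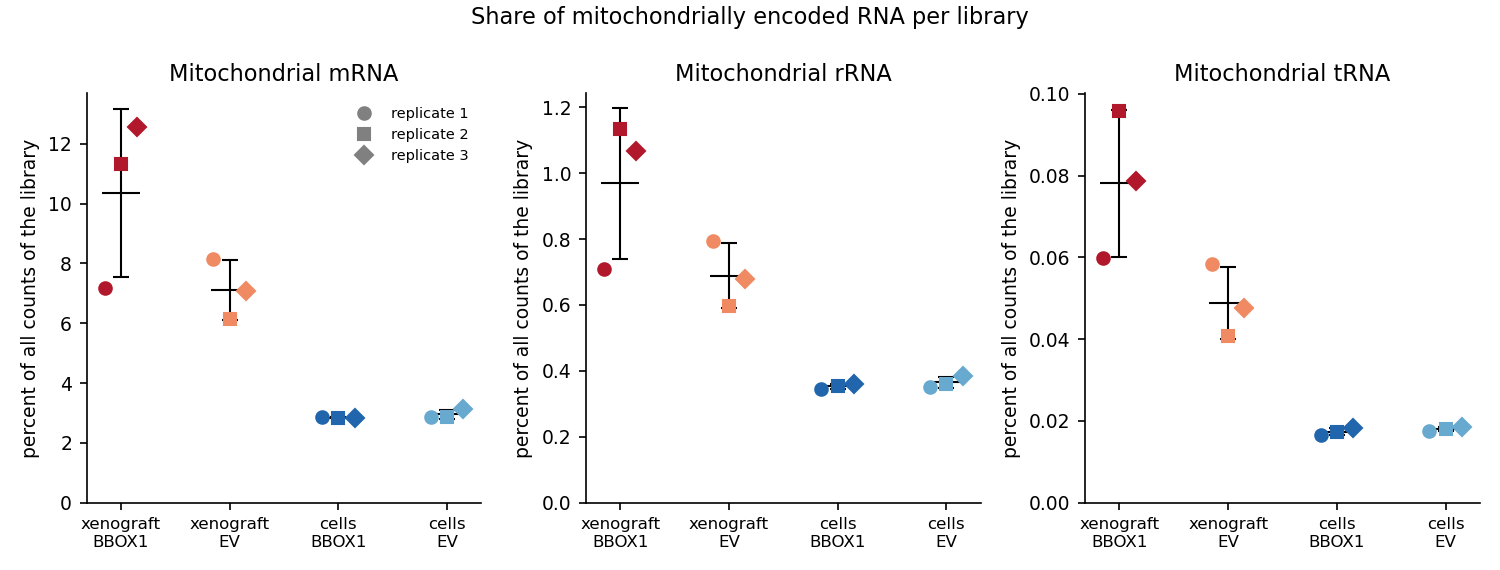
Percent of all counts of a library that fell on the 13 mitochondrial mRNAs, 2 rRNAs and 22 tRNAs, for each library (points, shaped by replicate) with the group mean and SD (bars, n = 3). Xenograft libraries lie above every cell library in each panel, and BBOX1 xenograft replicate 1 lies among the empty-vector xenografts for mRNA and rRNA and just above them for tRNA, at 0.0597% against at most 0.0583%.

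Xenografts were then compared with cultured cells gene by gene, within each vector. All 13 mRNAs passed as higher in empty-vector xenografts than in empty-vector cells (edgeR quasi-likelihood test, Benjamini-Hochberg adjusted p under 0.05 over all tested genes), in a comparison in which 35.5% of 15914 tested genes were higher and 33.1% lower. All 13 were also higher in BBOX1 xenografts than in BBOX1 cells, where 36.1% of 15906 tested genes were higher and 32.1% lower. The libraries of the settings did not overlap for any of the 13 with either vector, which held as higher for 36.9% of tested genes with the empty vector and 37.8% with BBOX1. All 13 also passed without BBOX1 xenograft replicate 1. The median log2 fold change of the 13 was 1.36 with the empty vector and 1.99 with BBOX1, against medians of 0.04 and 0.07 over all tested genes. Levels below are in CPM, the count scaled to library size, after TMM scaling over the 12 libraries, and fold changes come from the libraries of their own comparison (n = 3 per group).

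Complex IV, cytochrome c oxidase, has its catalytic core in MT-CO1, MT-CO2 and MT-CO3. MT-CO1 (ENSG00000198804, chrM:5904-7445), which holds the heme and copper centre that reduces oxygen, had 19837, 34761 and 39922 CPM in BBOX1 xenografts and 23425, 17359 and 22481 CPM in empty-vector xenografts, against 7192, 7085 and 7115 CPM in BBOX1 cells and 7060.3, 7146 and 7779 CPM in empty-vector cells. Its levels were higher in each xenograft library than in any cell library, with a log2 fold change of 1.54 (SE 0.11) with the empty vector (edgeR adjusted p = 1.04e-07) and 2.16 (SE 0.24) with BBOX1 (adjusted p = 6.13e-05). MT-CO2 (ENSG00000198712, chrM:7586-8269), which takes electrons from cytochrome c, had 7199, 11784 and 12783 CPM in BBOX1 xenografts and 7931, 6058 and 7624 CPM in empty-vector xenografts, against 4030.5, 3994 and 3911 CPM in BBOX1 cells and 3872, 3913 and 4229.8 CPM in empty-vector cells. The rise of MT-CO2 was the smallest of the 3 subunits, at log2 0.86 (SE 0.10) with the empty vector and 1.43 (SE 0.20) with BBOX1. MT-CO3, a structural subunit of the core, rose by log2 1.61 (SE 0.10) and 2.13 (SE 0.20) in the same comparisons.

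Complex I, NADH dehydrogenase, takes 7 of the 13 mRNAs, all for subunits of its membrane arm, and these spanned the whole range of fold changes. MT-ND3 (ENSG00000198840, chrM:10059-10404), which carries a loop near the quinone site, had 1745, 3002 and 3471 CPM in BBOX1 xenografts and 2068, 1682 and 2091 CPM in empty-vector xenografts, against 526, 545 and 503 CPM in BBOX1 cells and 463, 492 and 503 CPM in empty-vector cells. This was the largest rise of the 13 mRNAs in both comparisons, log2 2.02 (SE 0.09) with the empty vector (edgeR adjusted p = 1.52e-09) and 2.40 (SE 0.23) with BBOX1 (adjusted p = 2.73e-05). MT-ND4L (ENSG00000212907, chrM:10470-10766), a small subunit whose mRNA is joined to that of MT-ND4, had 1676, 3135 and 3067 CPM in BBOX1 xenografts and 1917, 1531 and 1646 CPM in empty-vector xenografts, against 1082, 1083 and 1074 CPM in BBOX1 cells and 1054, 1075 and 1209.7 CPM in empty-vector cells. It was the smallest rise of the 13 in both comparisons, log2 0.62 (SE 0.09) with the empty vector (edgeR adjusted p = 5.13e-05) and 1.30 (SE 0.21) with BBOX1 (adjusted p = 0.00061). The groups did not overlap for either gene, although they lie 65 bases apart on the same strand with only MT-TR between them. Of the others, the proton-pumping subunits MT-ND2, MT-ND4 and MT-ND5 rose by log2 0.93, 1.36 and 0.92 with the empty vector and 1.35, 2.01 and 1.45 with BBOX1. MT-ND1, at the foot of the quinone chamber, rose by log2 1.12 with the empty vector and less than MT-ND4 in both comparisons, and MT-ND6 rose by 1.74 with the empty vector and 1.99 with BBOX1.

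Complex III and ATP synthase add the last 3 mRNAs. MT-CYB (ENSG00000198727, chrM:14747-15887), the cytochrome b of complex III and its only mitochondrially encoded subunit, had 4318, 7020.1 and 8639.6 CPM in BBOX1 xenografts and 5532, 4389 and 4734 CPM in empty-vector xenografts, against 1395, 1385 and 1366 CPM in BBOX1 cells and 1386, 1407 and 1499 CPM in empty-vector cells. The groups did not overlap, and the rise was second to that of MT-ND3 in both comparisons, log2 1.78 (SE 0.09) with the empty vector and 2.29 (SE 0.23) with BBOX1. MT-ATP6, the proton channel of ATP synthase, rose by log2 1.54 (SE 0.09) and 2.05 (SE 0.23), and MT-ATP8, a small membrane subunit that shares 46 bases with it, by 1.23 (SE 0.12) and 1.70 (SE 0.19). MT-ATP8 had 134 to 247 CPM in xenografts and 59.1 to 75.1 CPM in cells, the lowest of the 13 mRNAs.

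Across the 13 mRNAs and 2 rRNAs the order of the fold changes was alike with either vector, with a Spearman correlation of 0.918 over 15 genes. These comparisons share no library, but the genes share precursor transcripts and a library's depth, and the value is a description only.

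**Figure D2:**
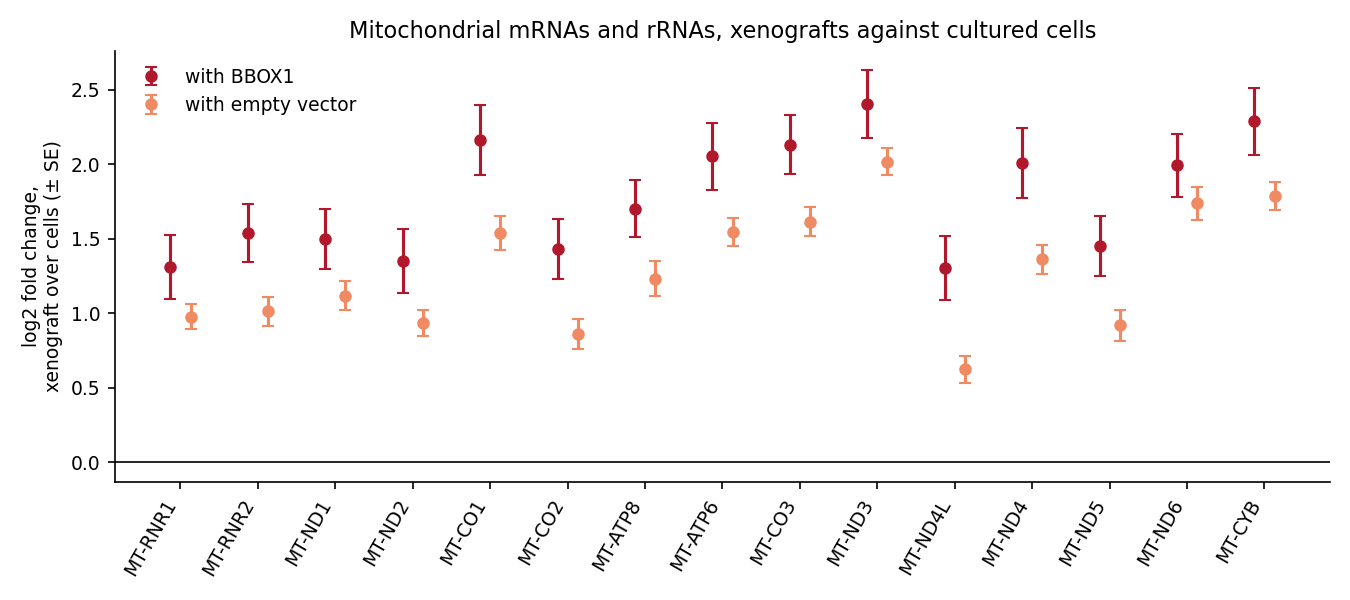
Log2 fold change of xenografts over cultured cells (points, ± SE from edgeR) for the rRNAs and mRNAs in genome order, with BBOX1 and with the empty vector (n = 3 libraries per group). All points lie above 0, from 0.62 for MT-ND4L with the empty vector to 2.40 for MT-ND3 with BBOX1.

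Because the genes rose by different amounts, the make-up of the mitochondrial mRNA reads differed between settings. Given as a share of all mitochondrial mRNA reads, which does not depend on library scaling, 5 mRNAs were higher in each xenograft library than in any cell library, 5 were lower and 3 overlapped. MT-CO1 made up 27.3% to 30.8% in xenografts against 25.1% to 25.5% in cells, MT-CYB 6.00% to 6.91% against 4.86% to 4.99%, and MT-ND3 2.51% to 2.78% against 1.63% to 1.93%; MT-ATP6 and MT-CO3 completed the higher group. MT-CO2 made up 9.54% to 10.6% in xenografts against 13.7% to 14.2% in cells, MT-ND4L 2.19% to 2.68% against 3.77% to 3.92%, and MT-ND5 4.52% to 5.35% against 6.49% to 6.86%; MT-ND1 and MT-ND2 completed the lower group. MT-ATP8, MT-ND4 and MT-ND6 overlapped. Of the 6 mRNAs without a full stop codon shown above, MT-CO3, MT-ND3 and MT-CYB were in the higher group, MT-ND1 and MT-ND2 in the lower, and MT-ND4 overlapped. These shares sum to a whole, so a higher share of 1 mRNA lowers the others, and they were not tested.

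**Figure D3:**
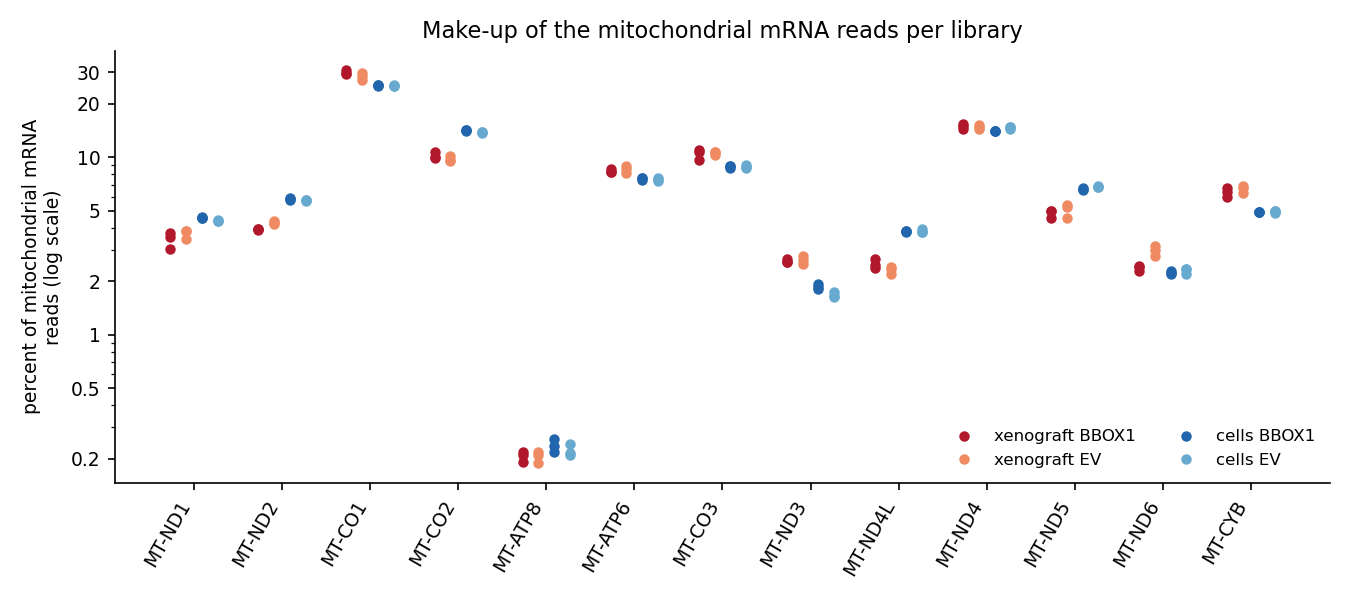
Percent of the mitochondrial mRNA reads of a library that fell on each mRNA (log axis), with 1 point per library and the groups side by side. MT-CO2, MT-ND4L, MT-ND1, MT-ND2 and MT-ND5 sit lower in the 6 xenograft libraries than in the 6 cell libraries, and MT-CO1, MT-ATP6, MT-CO3, MT-ND3 and MT-CYB sit higher.

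Levels of the 13 mRNAs and 2 rRNAs were compared per length, as CPM per kilobase of the gene. In empty-vector xenografts the order began with MT-CO1 (13676 CPM per kb), MT-CO2 (10533), MT-CO3 (9916), MT-ATP6 (9250.4) and MT-ND4 (7870.0), and each of the first 4 overlapped the next over the 3 libraries while MT-ND4 lay above the sixth, MT-ND4L. BBOX1 xenografts had the same first 5 in the same order, with MT-CO1 at 20432 and MT-CO2 at 15480.0 CPM per kb. In empty-vector cells the order was MT-CO2 (5855.5 CPM per kb), MT-CO1 (4752.5) and MT-ND4L (3746), each above the next in all 3 libraries, followed by MT-CO3, MT-ATP6 and MT-ND4, which overlapped in turn. BBOX1 cells likewise had MT-CO2 first, at 5817 CPM per kb, MT-CO1 second at 4624 and MT-ND4L next at 3635. MT-ATP8 was the lowest of these 15 in each of the 4 groups, at 1034 and 732 CPM per kb in BBOX1 and empty-vector xenografts and 322 and 314 CPM per kb in BBOX1 and empty-vector cells. Reads in the overlaps given above could be assigned to either gene or to none. The rule used is not given in the sources used here, which bears most on the short genes MT-ATP8 and MT-ND4L.

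The rRNAs rose by less than the median mRNA. MT-RNR1 (12S, ENSG00000211459, chrM:648-1601), the RNA of the small ribosomal subunit, had 741, 1488 and 1205 CPM in BBOX1 xenografts and 1061, 841 and 967 CPM in empty-vector xenografts, against 457, 474 and 472 CPM in BBOX1 cells and 476, 488 and 507 CPM in empty-vector cells. MT-RNR2 (16S, ENSG00000210082, chrM:1671-3229), that of the large subunit, had 5937, 10233 and 9812 CPM in BBOX1 xenografts and 6969.9, 5316 and 6226 CPM in empty-vector xenografts, against 2973, 3038 and 3058 CPM in BBOX1 cells and 2939, 3061 and 3269 CPM in empty-vector cells. Neither gene's xenograft libraries overlapped its cell libraries. Both rRNAs passed as higher in xenografts, MT-RNR1 by log2 0.98 (SE 0.08) with the empty vector and 1.31 (SE 0.22) with BBOX1, and MT-RNR2 by 1.01 (SE 0.10) and 1.54 (SE 0.20). Per 100 mitochondrial mRNA reads there were 9.85, 10.0 and 8.50 rRNA reads in BBOX1 xenografts and 9.75, 9.69 and 9.57 in empty-vector xenografts, against 12.1, 12.4 and 12.6 in BBOX1 cells and 12.2, 12.6 and 12.2 in empty-vector cells. This ratio was lower in all 6 xenograft libraries than in any cell library, with a difference of -2.80 rRNA reads per 100 mRNA reads and the vectors as strata (exact permutation test, two-sided, p = 0.005, adjusted p = 0.0438), and -2.90 without BBOX1 xenograft replicate 1. In living cells the mitochondrial rRNAs are far more abundant than the mRNAs, so these counts describe the rRNA that passed poly(A) capture, and a difference in tails or capture was not tested.

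MT-ND6 is the only mRNA of the light-strand promoter and the only one without a stable poly(A) tail in human cells. It had 1648, 2668 and 3129.5 CPM in BBOX1 xenografts and 2597, 1896 and 2082 CPM in empty-vector xenografts, against 635, 646 and 616 CPM in BBOX1 cells and 612, 657 and 721 CPM in empty-vector cells. Per 100 reads on the 12 heavy-strand mRNAs there were 2.49, 2.33 and 2.47 MT-ND6 reads in BBOX1 xenografts and 3.26, 3.08 and 2.85 in empty-vector xenografts, against 2.29, 2.34 and 2.25 in BBOX1 cells and 2.24, 2.39 and 2.39 in empty-vector cells. Empty-vector xenografts were above all other libraries in this ratio, and BBOX1 xenografts overlapped the cells of both vectors. The ratio was 0.629 lower in BBOX1 than in empty-vector xenografts (exact permutation, p = 0.1, the smallest possible with 3 against 3), and the difference between settings in the BBOX1 effect was -0.585 (exact permutation within strata, p = 0.075, adjusted p = 0.175). Xenografts were 0.430 above cells with the vectors as strata (exact permutation, p = 0.01, adjusted p = 0.07). None of these differences in the ratio passed after adjustment. They were -0.658, -0.614 and 0.415 without BBOX1 xenograft replicate 1. The library kit does not mark strand, so RNA antisense to MT-ND6 from the heavy-strand precursor cannot be told apart from MT-ND6 itself.

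Counts on the tRNA genes were concentrated on a few of them. MT-TC had the most, 2880 to 5811 counts in xenograft libraries and 863 to 1359 in cell libraries, followed by MT-TN, MT-TP, MT-TY, MT-TL1 and MT-TH, while 5 tRNAs averaged under 8 counts per library. The reads of 100 bases are longer than every tRNA gene, at 59 to 75 bases. MT-TC, MT-TN and MT-TY, 3 neighbouring genes on the minus strand of the reference, rose together in xenografts. Since the kit does not mark strand, these reads cannot be assigned to RNA of either strand. MT-TC had 224, 399 and 305 CPM in BBOX1 xenografts and 219.9, 157 and 195 CPM in empty-vector xenografts, against 50.4, 54.8 and 54.8 CPM in BBOX1 cells and 56.6, 51.8 and 57.9 CPM in empty-vector cells. The settings did not overlap, and the log2 fold change was 1.79 (SE 0.11) with the empty vector and 2.56 (SE 0.19) with BBOX1. MT-TN rose by 1.70 (SE 0.11) and 2.43 (SE 0.19) and MT-TY by 1.39 (SE 0.14) and 2.33 (SE 0.24).

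Other tRNA genes differed in direction. MT-TL1, for the UUR leucine codons, had 7.28, 18.3 and 11.8 CPM in BBOX1 xenografts and 8.40, 5.29 and 5.61 CPM in empty-vector xenografts, against 9.17, 9.60 and 10.2 CPM in BBOX1 cells and 10.8, 10.4 and 11.2 CPM in empty-vector cells. It was the only one of the 14 tested tRNA genes to pass as lower in xenografts with the empty vector (log2 -0.74, SE 0.18, edgeR adjusted p = 0.00246), where 33.1% of all tested genes fell, and with BBOX1 it did not pass (log2 0.39, SE 0.28, edgeR adjusted p = 0.245), though without BBOX1 xenograft replicate 1 it passed as higher. Of the 22 tRNA genes 14 passed the filter on low counts with the empty vector, of which 6 rose, where 35.5% of all tested genes rose, and 15 with BBOX1, of which 12 rose and 0 fell, where 36.1% rose. With BBOX1 xenograft replicate 1 left out, 13 of 16 rose and 1, MT-TI, fell, and 38.4% of all tested genes rose and 37.6% fell. Of all 22, 9 were higher without overlap with the empty vector and 3 lower, and 10 and 2 with BBOX1. Of tested genes, 36.9% with the empty vector and 37.8% with BBOX1 were higher without overlap, and 36.3% were lower in either comparison. The counts of tRNA genes that were higher without overlap are near those shares, and the counts that were lower without overlap are under them. The 22 include genes that were not tested. The smallest of the 6, MT-TH (log2 0.57, SE 0.22, edgeR adjusted p = 0.0319), was lost under 5 of the alternatives, with edgeR adjusted p up to 0.14. Of the 12 with BBOX1, MT-TS2 was lost under 9 of the alternatives (adjusted p up to 0.161, edgeR or DESeq2), MT-TH under 5 (0.178), MT-TD under 4 (0.125), MT-TT under 3 (0.117) and MT-TE under 1 (0.0582). A gene can pass this filter through 1 group alone, and a call in the other direction can then hardly arise. With BBOX1, MT-TL2, MT-TT and MT-TD passed it through the xenografts alone, and MT-TV through the cells alone. MT-TI was tested with BBOX1 only when BBOX1 xenograft replicate 1 was left out, and it then passed the filter through the cells alone. MT-TA had 0 counts in the 6 xenograft libraries and 29 in the 6 cell libraries, at least 8.13-fold lower in xenografts against a floor of 3 counts over the 6 libraries. MT-TA lies between MT-TW, which had 0 counts in xenografts and 5 in cells, and MT-TN, which was among the highest. Floors and intervals here cover counting error alone, because these reads carry no molecular identifiers and need not come from separate molecules.

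**Figure D4:**
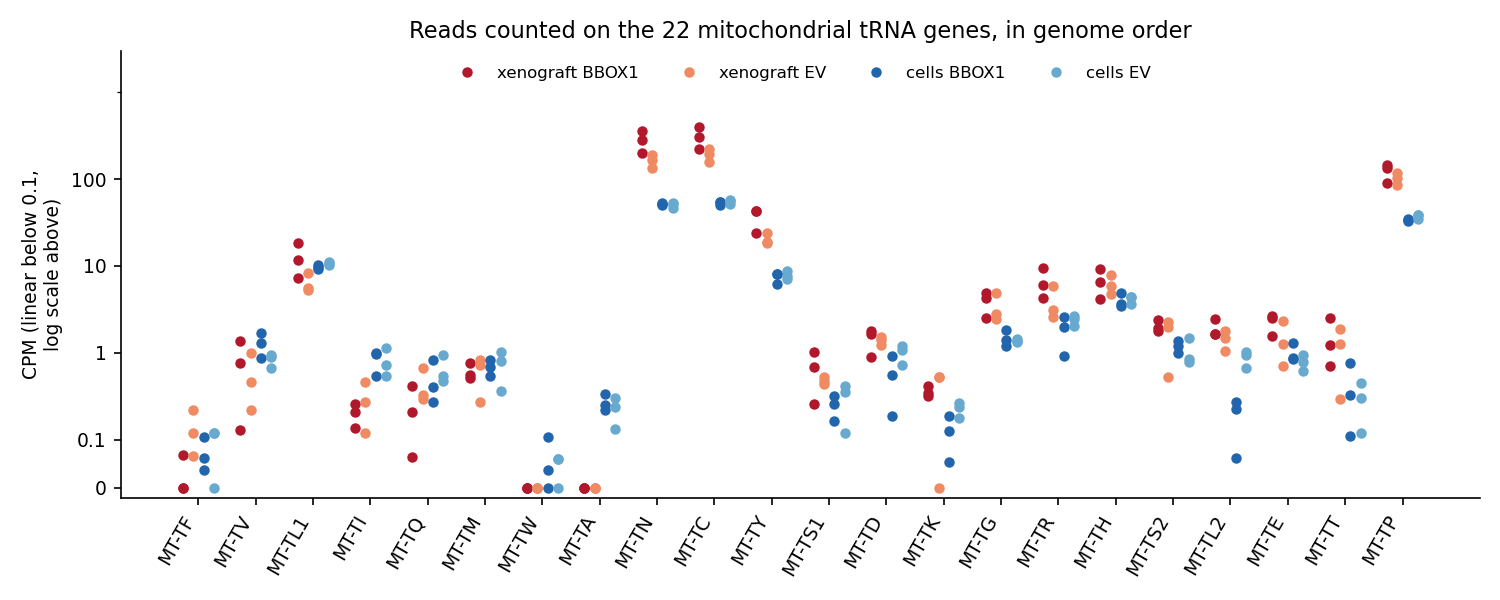
CPM on each of the 22 mitochondrial tRNA genes in genome order, 1 point per library, on an axis that is linear below 0.1 and logarithmic above. MT-TN, MT-TC and MT-TP stand highest in all groups and higher in xenografts, while MT-TA and MT-TW are at 0 in the 6 xenograft libraries.

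BBOX1 was then compared with the empty vector within xenografts. None of the 13 mRNAs passed (0 of 13 by edgeR, in a comparison in which 1.91% of 16126 tested genes were higher and 3.63% lower), although all 13 fitted log2 fold changes were positive, from 0.18 for MT-ND6 to 0.63 for MT-ND4L with a median of 0.48, against 0.02 over all tested genes. At an unadjusted p under 0.05 there were 6 of the 13, and DESeq2 called 1. The CPM values given above overlap between the groups for each mRNA, since BBOX1 replicate 1 lay within the empty-vector range for 8 mRNAs and below it for 5, while replicates 2 and 3 lay above it for all 13. Without BBOX1 xenograft replicate 1, 12 of 13 mRNAs passed as higher, at log2 0.61 to 0.87, and MT-ND6 did not (log2 0.41, SE 0.14, edgeR adjusted p = 0.053). In that fit 1854 of 16685 genes were higher and 2447 lower. Replicate 1 had the lowest mitochondrial mRNA share of its group, so leaving it out necessarily raised these differences. The share of mitochondrial mRNA in the library differed by 3.24 percentage points between BBOX1 and empty-vector xenografts (exact permutation, two-sided, p = 0.2), and by 4.82 without BBOX1 replicate 1 (exact permutation, p = 0.1, the smallest that 2 libraries against 3 allow).

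The largest of these fitted differences shows the pattern. MT-ND4L had 1676, 3135 and 3067 CPM in BBOX1 xenografts against 1917, 1531 and 1646 CPM in empty-vector xenografts (log2 0.63, SE 0.22, edgeR adjusted p = 0.113). Replicate 1 with BBOX1 fell inside the empty-vector range and replicates 2 and 3 did not. MT-RNR2 behaved alike (log2 0.49, SE 0.22, edgeR adjusted p = 0.185) and MT-RNR1 less so (log2 0.26, SE 0.22, edgeR adjusted p = 0.481). Among the tRNA genes, 3 of 22 did not overlap between the groups, where 13.9% of tested genes did not overlap as higher, and these were MT-TC, MT-TN and MT-TY. MT-TY had 24.2, 43.4 and 43.0 CPM with BBOX1 against 23.7, 19.0 and 18.1 CPM with the empty vector and was the only mitochondrial gene to pass by edgeR (log2 0.87, SE 0.21, edgeR adjusted p = 0.043), where DESeq2 called 4 tRNA genes and 1 mRNA higher. The call of MT-TY was lost when any of the 5 libraries other than BBOX1 replicate 1 was left out, and with the replicate number as a block (edgeR adjusted p up to 0.183). Without BBOX1 replicate 1, which had the lowest share of its group in both classes, 6 of 15 tRNA genes and both rRNAs passed as higher, where 11.1% of all tested genes did. MT-TN (log2 0.78, SE 0.20, edgeR adjusted p = 0.0507) and MT-TC (log2 0.70, SE 0.20, edgeR adjusted p = 0.0657) lay just beyond the threshold.

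In cultured cells the fitted differences between BBOX1 and the empty vector were small. The median log2 fold change of the 13 mRNAs was -0.04, against -0.00 over all tested genes, with a range from -0.10 to 0.11. MT-ND3 rose, in a comparison where 8.53% of 14960 tested genes were higher, with 526, 545 and 503 CPM in BBOX1 cells against 463, 492 and 503 CPM in empty-vector cells (log2 0.11, SE 0.03, edgeR adjusted p = 0.00456). MT-ND4 and MT-ND5 fell, where 7.86% of genes were lower. MT-ND4 had 4008, 3985 and 3938 CPM in BBOX1 cells against 4142, 4085 and 4549.8 CPM in empty-vector cells (log2 -0.10, SE 0.02, edgeR adjusted p = 0.00256). MT-ND5, the subunit at the far end of the membrane arm, had 1874, 1832 and 1872 CPM against 1904, 1927 and 2114 CPM (log2 -0.09, SE 0.02, edgeR adjusted p = 0.00736). The groups did not overlap for these 3 genes, though the nearest MT-ND3 libraries were within 1 CPM. Of all tested genes, 15.9% were higher without overlap and 15.1% lower, so this does not set the 3 apart. The 3 calls were lost when all 12 libraries were fitted with 1 shared spread, which left 0 of 13. Without BBOX1 cell replicate 2 MT-ND3 and MT-ND5 no longer passed, and without empty-vector cell replicate 3 MT-ND5 did not. Neither rRNA passed. By edgeR 1 tRNA gene fell, MT-TL2, for the CUN leucine codons, with 6, 5 and 1 counts in BBOX1 cells against 16, 17 and 15 counts in empty-vector cells (log2 -2.12, SE 0.52, edgeR adjusted p = 0.00357); it had 24, 36 and 26 counts in BBOX1 xenografts and 27, 27 and 18 counts in empty-vector xenografts. MT-TL2 passed the low-count filter through the empty-vector cells alone, so a call as higher with BBOX1 could hardly arise. Its call was lost with all 12 libraries in 1 fit (edgeR adjusted p = 0.44), and DESeq2 gave it no adjusted p and called 0 tRNA genes.

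**Figure D5:**
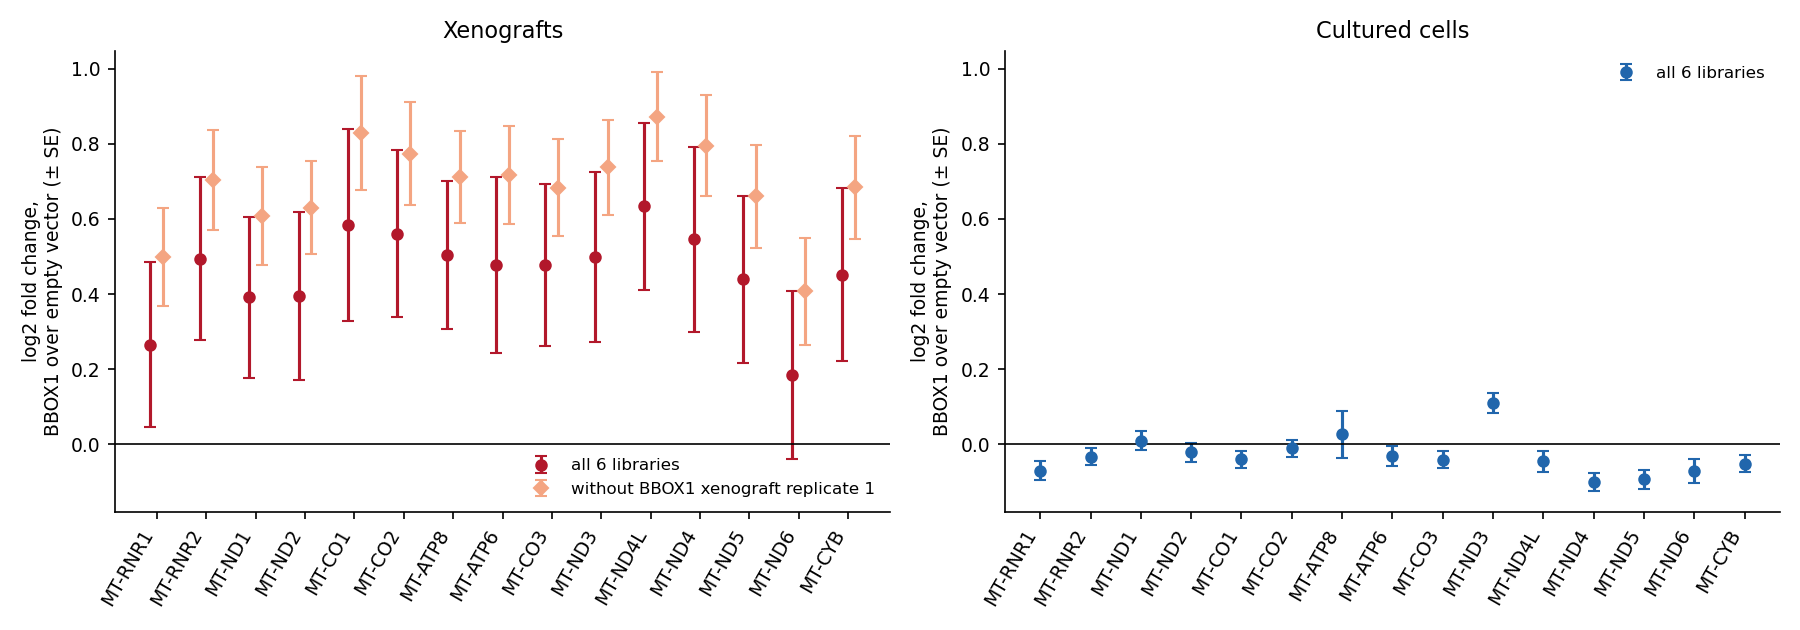
Log2 fold change of BBOX1 over empty vector (± SE from edgeR) for the rRNAs and mRNAs in genome order, in xenografts with all 6 libraries and without BBOX1 replicate 1 (left) and in cultured cells (right). Values in xenografts run from 0.18 to 0.63 for mRNAs with all libraries, and in cells from -0.10 to 0.11.

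Whether BBOX1 acted differently in the 2 settings was tested as an interaction over all 12 libraries. None of the 13 mRNAs passed by edgeR, in a test where 1.93% of 16927 genes were higher and 3.26% lower, with a median difference of log2 0.50 against -0.00 over all genes. At an unadjusted p under 0.05 there were 6 of 13, DESeq2 called 0, and without BBOX1 xenograft replicate 1 all 13 passed, at log2 0.45 to 0.89. The share of mitochondrial mRNA gave a difference of 3.35 percentage points (exact permutation within strata, p = 0.105, adjusted p = 0.175), and 4.93 without that library (exact permutation, p = 0.005, not adjusted). That library had the lowest share of its group, so leaving it out necessarily raised the difference. The share of tRNA reads gave 0.0300 percentage points (exact permutation, p = 0.015, adjusted p = 0.0875). MT-TL2 was the only mitochondrial gene past the threshold by edgeR in this test (log2 2.55, SE 0.59, edgeR adjusted p = 0.0248). Leaving out any of 6 libraries ended this call. DESeq2 called 4 other tRNA genes, MT-TC, MT-TL1, MT-TN and MT-TY, and gave no adjusted p for MT-TL2. With BBOX1 xenograft replicate 1 left out, 7 of 17 tRNA genes and both rRNAs passed as higher by edgeR, where 8.23% of all tested genes did.

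Nuclear genes that serve the mitochondrial genome were counted in the same comparisons, in which 35.5% of all tested genes rose and 33.1% fell with the empty vector, and 36.1% rose and 32.1% fell with BBOX1. Of 8 genes for mitochondrial transcription, 2 rose and 4 fell in empty-vector xenografts against empty-vector cells (median log2 -0.41, against 0.04 over all tested genes), and 1 rose and 3 fell with BBOX1 (median -0.26, against 0.07). TFAM, which packages mitochondrial DNA and opens its promoters, averaged 36.1 CPM in BBOX1 xenografts and 41.3 CPM in empty-vector xenografts, against 84.1 CPM in BBOX1 cells and 84.8 CPM in empty-vector cells, a log2 fold change of -1.03 (SE 0.09) with the empty vector and -1.20 (SE 0.14) with BBOX1. The polymerase gene POLRMT fell, at log2 -0.51 (SE 0.06) and -0.49 (SE 0.09) and the initiation factor TFB2M at -0.78 (SE 0.10) and -0.95 (SE 0.15). MTERF2, of the transcription termination factor family, rose by log2 1.32 (SE 0.16) with BBOX1. Of 12 genes that maintain mitochondrial DNA, 3 rose and 4 fell with the empty vector and 2 rose and 5 fell with BBOX1, so the share that fell was near that of all genes. The counts with BBOX1 but without BBOX1 xenograft replicate 1 were 1 higher and 3 lower of 8 and 3 higher and 5 lower of 12. RNASEH1, which removes RNA primers, fell at log2 -1.31 (SE 0.09) and -1.91 (SE 0.19).

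Genes for the processing, stability and decay of mitochondrial RNA mostly fell in xenografts, where 33.1% of all tested genes fell with the empty vector and 32.1% with BBOX1. Of 31 tested, 2 rose and 21 fell with the empty vector (median log2 -0.38) and 3 rose and 20 fell with BBOX1 (median -0.48). LRPPRC, the mRNA stabiliser, averaged 77.5 CPM in BBOX1 xenografts and 84.3 CPM in empty-vector xenografts, against 202 CPM in BBOX1 cells and 191 CPM in empty-vector cells, a log2 fold change of -1.17 (SE 0.06) with the empty vector and -1.36 (SE 0.18) with BBOX1. PDE12, a deadenylase of mitochondrial poly(A) tails, fell at log2 -0.98 (SE 0.08) and -1.05 (SE 0.11), and FASTKD2, an RNA-binding protein of the 16S rRNA, at -0.90 (SE 0.08) and -1.26 (SE 0.10). Of 19 synthetases that charge mitochondrial tRNAs, 4 rose and 11 fell with the empty vector and 1 rose and 10 fell with BBOX1. The mitochondrial ribosome had 16 of 78 proteins higher and 29 lower with the empty vector, and 7 of 77 higher and 39 lower with BBOX1, with MRPL19 and MRPL3 among those that fell in both; the 29 are near the share of all genes. Of 14 genes for mitochondrial translation and membrane insertion, 1 rose and 7 fell with the empty vector and 2 rose and 8 fell with BBOX1, among them the elongation factor GFM1 at log2 -0.92 (SE 0.08) and -1.32 (SE 0.14). Without BBOX1 xenograft replicate 1, where 37.6% of all tested genes fell, those that fell with BBOX1 were 20 of 31 for processing and decay, 12 of 19 synthetases, 46 of 78 ribosomal proteins and 9 of 14 for translation and insertion.

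Of the nuclear subunits of the respiratory complexes, more rose than fell for complexes I and IV and ATP synthase. In these comparisons 35.5% of all tested genes rose and 33.1% fell with the empty vector, and 36.1% rose and 32.1% fell with BBOX1. Of 37 nuclear complex I genes, 22 rose and 2 fell with the empty vector (median log2 0.40) and 17 rose and 4 fell with BBOX1 (median 0.32). NDUFS1, an iron-sulfur subunit of the matrix arm, was among those that fell, at log2 -0.79 (SE 0.07) with the empty vector. Complex IV had 7 of 11 higher and 0 lower with the empty vector and 4 higher and 1 lower with BBOX1, and ATP synthase 9 of 17 higher and 3 lower and 8 higher and 4 lower. Complex III had 4 of 9 higher and 3 lower with the empty vector and 2 higher and 5 lower with BBOX1. For complex III with the empty vector, the 4 of 9 higher and 3 of 9 lower are near the shares of all genes. So are the 4 of 11 higher for complex IV with BBOX1. Without BBOX1 xenograft replicate 1, where 38.4% of all tested genes rose, those that rose with BBOX1 were 22 of 37 for complex I, 3 of 9 for complex III, 8 of 11 for complex IV and 10 of 17 for ATP synthase. Of 9 regulators of mitochondrial biogenesis, 2 rose and 5 fell with the empty vector and 2 rose and 6 fell with BBOX1, also without that library. The coactivator gene PPARGC1A averaged 8.91 CPM in BBOX1 xenografts and 6.65 CPM in empty-vector xenografts, against 3.11 CPM in BBOX1 cells and 2.48 CPM in empty-vector cells (log2 1.44 (SE 0.22) with the empty vector and 1.53 (SE 0.27) with BBOX1), while its relative PPARGC1B fell, at log2 -3.19 (SE 0.25) and -5.06 (SE 0.56), to 0.136 CPM in BBOX1 xenografts and 0.678 CPM in empty-vector xenografts.

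Between BBOX1 and the empty vector few genes of these lists passed. In xenografts, where 1.91% of all tested genes rose and 3.63% fell, no list had a gene that rose, and those that fell were 1 of 37 for complex I, 2 of 31 for RNA processing (FASTKD5, log2 -0.77 (SE 0.18), and SLIRP, -0.54 (SE 0.13)), 1 of 19 synthetases (FARS2, -0.70 (SE 0.15)) and 5 of 77 ribosomal proteins, counts too small to set apart from that share. Without BBOX1 replicate 1, where 11.1% of all tested genes rose and 14.7% fell, they were 3 higher and 2 lower for complex I, 3 and 7 for RNA processing, 1 and 5 synthetases and 4 and 19 ribosomal proteins. The calls of FASTKD5, SLIRP and FARS2 were each lost under 6 of the alternatives (edgeR adjusted p up to 0.142, 0.178 and 0.131). SLIRP, the partner of LRPPRC, averaged 17.9 CPM in BBOX1 xenografts and 26.1 CPM in empty-vector xenografts. In cells, where 8.53% of all tested genes rose and 7.86% fell, the nuclear subunits of complexes I, III and IV and of ATP synthase had 5 of 37, 3 of 9, 4 of 11 and 4 of 17 higher and none lower, with COX5B, a matrix-side subunit of complex IV, at log2 0.22 (SE 0.04). With all 12 libraries in 1 fit, 0 genes of these lists passed in cells. POLRMT rose in BBOX1 cells (log2 0.18, SE 0.03, edgeR adjusted p = 0.000254), with 145 CPM in BBOX1 cells and 128 CPM in empty-vector cells.

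Other values moved with the setting. RNAs that normally lack a poly(A) tail (signal recognition particle RNA, small nuclear and nucleolar RNAs and replication-dependent histone mRNAs, 103 genes of which 42 to 47 were at 0 counts in each group) summed to 138, 165 and 287 CPM in BBOX1 xenografts and 186, 200.2 and 214 CPM in empty-vector xenografts, against 122 to 136 CPM in BBOX1 cells and 119.5 to 126 CPM in empty-vector cells. Of 20 tested, 11 rose and 1 fell with the empty vector, where 35.5% of all tested genes rose and 33.1% fell. With BBOX1, 11 of 18 rose and 2 fell, where 36.1% of all tested genes rose and 32.1% fell. Without BBOX1 xenograft replicate 1, 12 of 20 rose and 3 fell, where 38.4% of all tested genes rose and 37.6% fell. The fibroblast and pericyte markers, 11 gene entries, summed to 278 to 391 CPM in BBOX1 xenografts and 264 to 453 CPM in empty-vector xenografts, against 13.2 to 15.5 CPM in BBOX1 cells and 13.7 to 16.7 CPM in empty-vector cells. COL1A1 and COL3A1 made up most of this sum, while COL1A2 and DCN had at most 0.236 CPM in any library. The 10 leukocyte markers summed to 4.99 to 6.18 CPM in BBOX1 xenografts and 11.8 to 30.02 CPM in empty-vector xenografts, against 2.64 to 4.05 CPM in BBOX1 cells and 4.02 to 5.72 CPM in empty-vector cells. Of the 3 tested, LAPTM5 and ITGAM rose with either vector, at log2 4.19 (SE 0.48) and 4.62 (SE 0.52) with the empty vector and 1.64 (SE 0.47) and 3.11 (SE 0.62) with BBOX1. The 10 endothelial markers summed to 2.61 to 4.19 CPM in BBOX1 xenografts and 1.77 to 4.80 CPM in empty-vector xenografts, against 2.08 to 2.33 CPM in BBOX1 cells and 2.63 to 3.10 CPM in empty-vector cells. ESAM was the 1 of 3 tested that rose with the empty vector (log2 0.82, SE 0.34, edgeR adjusted p = 0.0482). The 7 erythroid markers summed to at most 0.137 CPM in BBOX1 xenografts and 0.768 CPM in empty-vector xenografts, against at most 0.378 CPM in BBOX1 cells and 0.24 CPM in empty-vector cells. The 10 skeletal muscle and adipose markers summed to 2.95 to 6.26 CPM in BBOX1 xenografts and 1.59 to 3.28 CPM in empty-vector xenografts, against 0.109 to 0.854 CPM in BBOX1 cells and 0.580 to 0.72 CPM in empty-vector cells. The parts of poly(A) capture, of host cells and of reads of mouse mitochondrial RNA in the xenograft values were not tested, and any removal of mouse reads is not given in the sources used here.

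Within BBOX1 xenografts, some lists of other RNA followed the same split by library and some did not. The nuclear-retained RNAs were 4 genes led by MALAT1 and NEAT1, of which 1 was at 0. They summed to 492, 846 and 812 CPM in BBOX1 xenografts and 535, 553 and 425 CPM in empty-vector xenografts, so replicate 1 was the low library there too. The 19 synthetases summed to 762.5, 714.6 and 736.6 CPM in BBOX1 xenografts, with replicate 1 highest. The relation of these sums to the mitochondrial values was not tested. Nuclear copies of mitochondrial genes on chromosome 1 took a small part of the reads. MTATP6P1 had 5.44% to 6.88% as many reads as MT-ATP6 in xenografts and 5.89% to 6.68% in cells, and MTCO1P12 0.272% to 0.319% as many as MT-CO1 in xenografts and 0.251% to 0.294% in cells, while MTND2P28 had 3.82% to 4.77% as many as MT-ND2 in xenografts and 5.44% to 6.09% in cells. These copies are close to identical with their mitochondrial originals, so the split of reads between them is uncertain.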

How the data were processed

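Polyadenylated RNA was analysed in 12 libraries, 3 per group, with groups and replicate numbers taken from the sample titles. Per the labels' protocols, DNase-treated RNA went into an NEBNext Ultra kit and was sequenced as paired 100-base reads. The values deposited by the authors are unnormalised counts of reads for each gene. The submitters' processing notes name fastp, STAR, featureCounts and DESeq2, with hg38 as the build; versions, settings, and the treatment of reads over 2 genes or several loci were not given in the sources used here. Each of the 58735 gene identifiers was found in GENCODE release 29, which supplied GRCh38 coordinates and sequences.

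Genes were tested by quasi-likelihood F test in edgeR 4.0.16 (R 4.3.3) after TMM scaling and a low-count filter (filterByExpr on the groups, minimum count 10), with Benjamini-Hochberg adjustment over all tested genes and a threshold of 0.05. Each comparison used its own 6 libraries and the interaction used all 12. The SE was taken as |log2 fold change| over the root of F. CPM in the text are scaled by TMM over the 12 libraries. Shares are percent of raw counts and were compared by exact permutation over samples; the 95% Wilson interval of a library's mitochondrial mRNA share was at most ± 0.0162 percentage points. The fits were tested on simulated counts. No replicate pair had counts within sampling noise of each other in a chi-square test.

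The 13 mRNAs and 2 rRNAs are all named, and tRNAs if among the 6 of highest mean count or past the threshold. From the nuclear lists, up to 3 genes of smallest p per list and comparison were open to naming, besides POLRMT, TFAM, LRPPRC and PPARGC1A; MT-TA, MT-TW and the markers at or near 0 were chosen after their values were seen. The members and the 20 gene lists were chosen with earlier results of these data known. Correlations of nuclear genes with the mitochondrial mRNAs are not given, since the libraries fall into 2 clusters. The alternatives tried were DESeq2 1.42.0 and its size factors, weaker or other low-count filters, the replicate number as a block, mitochondrial genes left out of the scaling, a test on protein-coding genes, a joint fit of the 12 libraries, other denominators of the shares, ratios without the overlapping mRNAs, and each library left out in turn.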

Additional observations from a re-analysis of the deposited data

Results flagged for a closer look

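MT-TL2, the tRNA gene for the CUN leucine codons, is listed because its BBOX1 effect differed between xenografts and cells in the test of the difference itself (log2 2.55, SE 0.59, edgeR adjusted p = 0.0248). It had 24, 36 and 26 counts in BBOX1 xenografts and 27, 27 and 18 in empty-vector xenografts, against 6, 5 and 1 counts in BBOX1 cells and 16, 17 and 15 in empty-vector cells. The call was lost when any of 6 libraries was left out, 5 of them cell libraries and the other empty-vector xenograft replicate 2, with edgeR adjusted p up to 0.0724. Groups of 3 libraries were not examined for single outlying values.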

How the results depend on the processing

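All 13 mitochondrial mRNAs passed as higher in xenografts over cells, with either vector, in every alternative run and with any library left out. The count of mRNAs higher in BBOX1 xenografts was 6 with no filter on low counts, 6 with all 12 libraries in 1 fit, 1 with DESeq2, and 0 to 12 with a library left out. For the difference of the BBOX1 effect between settings it was 8 with no filter and 0 to 13 with a library left out. In cells 0 mRNAs were higher and 0 lower with all 12 libraries in 1 fit, 1 was lower with DESeq2, and 0 to 1 were higher and 1 to 3 lower with a library left out.

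With a library left out, the difference between settings in the BBOX1 effect ran from 2.25 to 4.93 percentage points for the mRNA share, 0.211 to 0.424 for rRNA and 0.0212 to 0.0392 for tRNA. The rRNA reads per 100 mRNA reads changed sign between BBOX1 and empty vector in cells without the overlapping mRNAs (-0.0509) and with a library left out (-0.0822 to 0.198), and with a library left out also in xenografts (-0.498 to 0.260), with both settings as strata (-0.227 to 0.152) and in the difference between settings (-0.543 to 0.215). The cause was not tested. Small fitted log2 changes also changed sign with a library left out, as these ranges show. Between BBOX1 and empty-vector cells they were MT-ATP6 (-0.061 to 0.018), MT-ATP8 (-0.036 to 0.15), MT-CO2 (-0.027 to 0.026), MT-ND1 (-0.017 to 0.052), MT-ND2 (-0.045 to 0.026), MT-ND4L (-0.077 to 0.015), MT-RNR2 (-0.061 to 0.0051), MT-TH (-0.23 to 0.0010), MT-TN (-0.0050 to 0.080) and MT-TY (-0.17 to 0.063). Between BBOX1 and empty-vector xenografts they were MT-ND6 (-0.017 to 0.41) and MT-TH (-0.19 to 0.37), in BBOX1 xenografts over cells MT-TL1 (-0.00094 to 0.60), and in the difference between settings MT-TH (-0.12 to 0.42).

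Replicate numbers did not pair the samples, with correlations of same-numbered deviations of -0.132 to 0.043. With the replicate number as a block, 103 genes were higher and 352 lower in BBOX1 xenografts (308 and 586 without it) and 176 higher and 372 lower in the difference between settings (326 and 552 without it); no count of mRNAs moved. With no filter, 797 genes were higher and 1408 lower in BBOX1 xenografts, 570 and 1092 in the difference between settings, and the median over all genes was 0.15 and 0.25 in xenografts over cells with the empty vector and with BBOX1. Counts on tRNA genes under about 10 per library limit what can be seen there.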

Other observations

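Reads within joined or neighbouring transcripts split differently in xenografts and cells; these ratios were chosen after their values were seen and were not tested. For each 100 reads on MT-ND4 there were 17.1, 17.8 and 15.4 reads on MT-ND4L in BBOX1 xenografts and 16.3, 16.3 and 14.5 in empty-vector xenografts, against 25.4 to 27.3 in the cell libraries of both vectors. Both genes are known to be translated from 1 bicistronic mRNA. For each 100 reads on MT-ATP6, the partner of MT-ATP8 in the other bicistronic mRNA, there were 2.24 to 2.64 reads on MT-ATP8 in xenografts and 2.77 to 3.46 in cells. Neither ratio overlapped between the settings. MT-CO2 had 32.0 to 36.3 reads per 100 on MT-CO1 in xenografts and 54.4 to 56.4 in cells, while MT-CO3 had 31.2 to 39.3 per 100 in xenografts and 34.4 to 35.8 in cells, which overlapped. For each 100 reads on MT-RNR2 there were 12.5, 14.5 and 12.3 on MT-RNR1 in BBOX1 xenografts and 15.2, 15.8 and 15.5 in empty-vector xenografts, against 15.4 to 15.6 in BBOX1 cells and 15.5 to 16.2 in empty-vector cells.

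The mitochondrial and nuclear mRNAs of a complex were also set against each other, as summed CPM. The 3 mitochondrial mRNAs of complex IV had 37.6, 45.6 and 51.4 times the summed CPM of its 11 nuclear mRNAs in BBOX1 xenografts and 31.4, 26.6 and 29.3 times in empty-vector xenografts, against 13.6 to 14.02 times in BBOX1 cells and 14.5 to 15.7 times in empty-vector cells. For complex I the ratio of 7 mitochondrial to 37 nuclear mRNAs was 12.9, 18.4 and 19.4 in BBOX1 xenografts and 13.4, 11.1 and 11.4 in empty-vector xenografts, against 5.65 to 5.75 in BBOX1 cells and 6.00 to 6.67 in empty-vector cells. MT-CYB had 4.03 to 8.49 times the summed CPM of 9 nuclear complex III mRNAs in xenografts and 1.16 to 1.35 times in cells, and the ATP synthase mRNAs 2.63 to 5.27 times those of 17 nuclear genes in xenografts and 0.940 to 1.10 times in cells. Between BBOX1 and the empty vector, complex IV was the only one of the 4 complexes whose ratios did not overlap in xenografts, BBOX1 being higher. For BBOX1 replicate 1 this rested on a low nuclear sum, 918.1 CPM against 1135 to 1291 CPM in empty-vector xenografts. Its mitochondrial sum, 34485.5 CPM, lay within their range of 30243.2 to 40129.5 CPM. In cells the BBOX1 ratios were lower without overlap for complexes I, III and IV and for ATP synthase. For each of these, the nuclear sums were higher without overlap in BBOX1 cells, while the mitochondrial sums overlapped. For complex IV the nuclear sums were 965.0 to 997.5 CPM in BBOX1 cells and 912.4 to 933.9 CPM in empty-vector cells. Its mitochondrial sums were 13529.4 to 13699.2 CPM and 13463.1 to 14697.2 CPM. These ratios compare molecules of different length and were not tested.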
